A study of Caenorhabditis elegans with 12 samples.

Results

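The comparison described here sets the arrays with title codes 2 and 4 against those with title codes 1 and 3 in a series of whole-genome expression arrays of the nematode Caenorhabditis elegans. It takes in all 12 arrays of the series, 6 with codes 2 and 4 and 6 with codes 1 and 3, chosen by title alone. Codes 2 and 1 come from the HLH strain, which carries egl-15::gfp as a reporter, pRF4 as a transformation marker, and, in addition, pHS::hlh-2 with pHS::hlh-8. Codes 4 and 3 come from the marker strain, which carries egl-15::gfp and pRF4 alone, so both strains share the reporter and the marker. Each code has 3 arrays, described in the design text as biological replicates, and titles also give a set number from 1 to 3. The design text says that worms of both genotypes were studied with and without heat shock, but no label ties a code to either state, so the codes are used as names throughout. The labels used here give no age, stage or temperature, and they do not expand pHS. The array titled 2_2 (2) repeats the set number of another code 2 array, whereas set 3 has no other code 2 array. It was placed in set 3 here and then left out.

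Cells answer misfolded protein with separate programmes. In the cytosol the factor HSF-1 raises small heat shock proteins, which hold unfolded proteins in solution, and the HSP70, HSP90 and HSP110 chaperones, which refold them with DnaJ co-chaperones. In the endoplasmic reticulum (ER) the sensor IRE-1 and the factor XBP-1 raise the chaperone BiP and genes of membrane lipid synthesis. Desaturases put double bonds into fatty acids and so set how fluid membranes are. RNA came from lysates that mix all tissues, so fewer cells of a type and less RNA per cell cannot be told apart.

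Signals were deposited by the authors as MAS5 values, 1 per probe set and array, with a 2% trimmed mean of 500.1 on every array and array medians between 180.3 and 208. Of 22625 probe sets, 12328 were tested. The difference (codes 2 and 4 minus codes 1 and 3) was fitted on the log2 scale with limma, with strain and set number as further terms. A probe set was called at a Benjamini-Hochberg adjusted p under 0.05 over all tested probe sets. The number of arrays limits the precision, and p-values measure the spread between these arrays that remains after the strain and set terms. Arrays of the same set deviated together from their group means, with r down to 0.27, while arrays of different sets reached 0.40. The array titled 2_2 (2) likewise deviated together with the other arrays of set 3. Its correlations with set 1 overlapped those with set 3 in range, so its placement is not settled.

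In total 81 probe sets were called, which is 0.657% of those tested. Of these, 48 were higher in codes 2 and 4 (0.389% of those tested) and 33 were lower (0.268%). The small heat shock and inducible HSP70 genes account for 8 called probe sets, with log2 differences between 0.90 and 6.16. The other 73 comprise 40 rises and 33 falls, and their single-gene probe sets name 34 genes that rose and 25 that fell. Their differences were much smaller: the sizes lay between 0.31 and 1.47 on the log2 scale with a median of 0.61, and 3 exceeded 1, those of hsp-4, fat-5 and the dim lido-8. Of the 81, 5 were above the array median only on arrays of codes 2 and 4 (hsp-16.41, hsp-70, lido-8, Y70C5C.1 and inx-16). These 5 passed the filter on low signals only through the side where they are high. So did F15B9.6, above the median on 5 arrays of codes 2 and 4 and on 1 of codes 1 and 3. The same holds for pgp-5, with 1 array of codes 2 and 4 and 4 of codes 1 and 3. The filter needs 3 such arrays, so the calls of all these genes are given as descriptions. In 16 of the 73, no array of codes 2 and 4 overlapped any array of codes 1 and 3, a separation that 0.341% of all tested probe sets showed. Every one of the 81 had the same sign in all 6 pairs of arrays of one strain and set, against 9.82% of all tested probe sets (4.95% higher and 4.88% lower). As both measures come from the contrast that made the calls, they describe the called probe sets and add no separate evidence.

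The difference was then taken per strain, and the strains share no array. In a fit of all 12 arrays with 4 groups and set, 20 probe sets (0.162%) were called in the HLH strain and 17 (0.138%) in the marker strain. That fit takes its set terms and residual spread from both strains together. Fits of each strain alone called 40 in the HLH strain and 33 in the marker strain. Across the tested probe sets the differences of the HLH strain (code 2 minus code 1) and the marker strain (code 4 minus code 3) correlated with Pearson r = 0.40, and with r = 0.29 without the heat shock probe sets. These values are across genes, which are not independent replicates, and the paired arrays of both strains share set numbers. Of the 200 probe sets outside the heat shock lists with the smallest p in the HLH strain alone, 176 (88%) had the same sign in the marker strain. In the other direction the count was 172 (86%), whereas 58.91% of all tested probe sets had one sign in both strains. The strain by code interaction, a test of whether the difference has another size in the HLH strain, gave 0 calls with limma (0% of those tested). At an unadjusted p under 0.05 it had 367 probe sets (2.98% of those tested). Among the 73 probe sets outside the heat shock lists, 39 had the larger difference in the HLH strain and 34 in the marker strain, and 5 had an unadjusted interaction p under 0.05. The smallest adjusted interaction p, 0.207, belonged to hlh-8, one of the construct genes, which encodes the worm Twist factor. Its difference was 2.27 in the HLH strain and 0.14 in the marker strain. In the fit with 4 groups hlh-8 was called in the HLH strain (limma adjusted p = 0.000474) but not in the marker strain (0.945). Over both strains hlh-8 was not called (limma adjusted p = 0.135), nor was any other of the 4 tested construct genes.

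**Figure D1:**
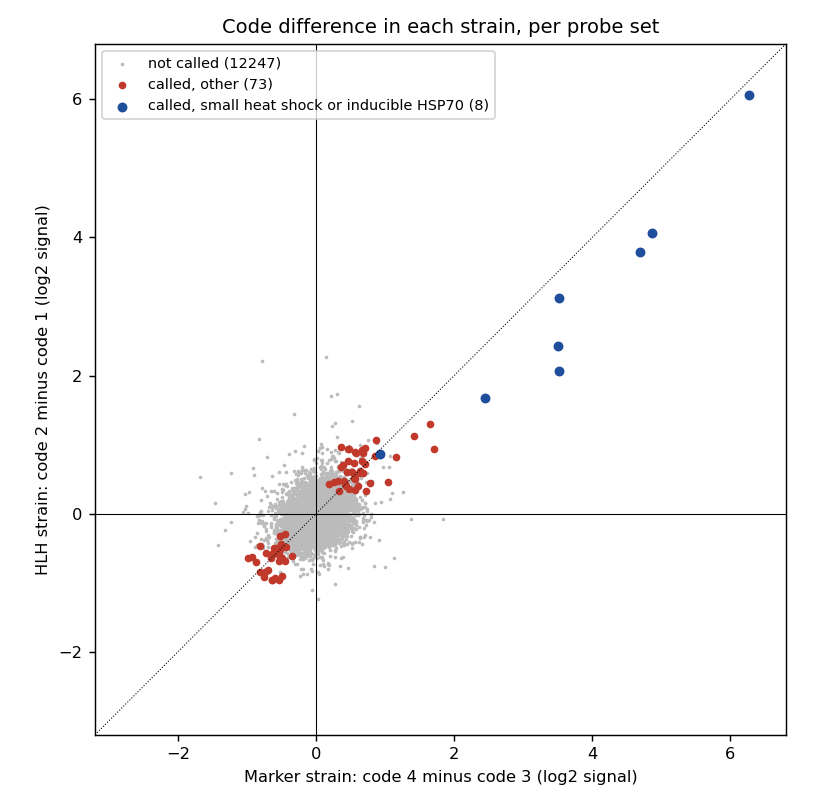
Difference in log2 signal per tested probe set, in the HLH strain (code 2 minus code 1, vertical axis) and in the marker strain (code 4 minus code 3, horizontal axis); the dotted line marks equal differences. The 8 called heat shock probe sets run out to above 6 on both axes, whereas the other 73 called probe sets (red) lie close to the centre, in the quadrants where both strains have the same sign.

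The heat shock genes set the scale for the rest. The small heat shock gene hsp-16.41, whose product binds unfolded proteins, had signals of 4775.4, 4260.6 and 5233.5 with code 2 and 127.1, 94.3 and 30.2 with code 1 in sets 1 to 3. It had 5505.3, 3789.4 and 4859.4 with code 4 and 105.5, 38.4 and 55.5 with code 3, a fitted difference of 6.16 ± 0.25 (SE). All its code 1 and code 3 signals lay below the array medians, down to 30.2 near the floor of 16.7, so the size of this difference is uncertain. The inducible cytosolic chaperone hsp-70 had 361.4, 238.3 and 408.1 with code 2 and 103.7, 111 and 93.6 with code 1. Its signals were 574.9, 273.9 and 549.9 with code 4 and 102.4, 58.8 and 88.9 with code 3. Both genes separated codes 2 and 4 from codes 1 and 3 on every array, and hsp-70, whose code 1 and code 3 signals were likewise below the array medians, differed by 2.06 ± 0.19. Of 9 tested genes on the small heat shock list, 3 were called and the median difference was 0.22, though it was 0.07 without the code 3 array of set 3. Beside hsp-16.41 the calls were those of hsp-17 (0.90) and hsp-16.2 (4.23). The 6 not called ranged from hsp-12.1 (-0.10, adjusted p = 0.794) to hsp-12.3 (0.59, adjusted p = 0.659).

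Outside those genes the steepest rise was in the ER chaperone BiP. Its gene hsp-4 had signals of 3483.4, 2352.6 and 3374.9 with code 2, against 1250.7, 1332.7 and 1117.7 with code 1 in sets 1 to 3. With code 4 it had 2574.5, 2119.5 and 4352.8, against 875.8, 704.8 and 1245.1 with code 3. All 6 arrays of codes 2 and 4 were thus above all 6 arrays of codes 1 and 3. The fitted difference was 1.47 ± 0.14 (SE, limma adjusted p = 9.37e-05), or 2.78-fold, with 1.30 in the HLH strain and 1.65 in the marker strain. The gene hsp-3, which encodes the other BiP of the worm and was looked up after its value was known, differed by 0.17 ± 0.10 and was not called (limma adjusted p = 0.559).

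Other genes of the ER list moved less. The choline kinase gene ckb-2, whose product starts phosphatidylcholine synthesis from choline, had 1354.3, 1151.1 and 1212 with code 2 and 611.6, 791.9 and 621.6 with code 1. It had 816.9, 753.2 and 1256.3 with code 4 and 523.8, 585.6 and 749.4 with code 3. Within each strain the codes did not overlap, although the lowest code 4 array (753.2) lay below the highest code 1 array (791.9). The rise of ckb-2 was 0.73 ± 0.13 (limma adjusted p = 0.0164). The gene xbp-1, which encodes the ER stress transcription factor, rose by only 0.33 ± 0.07 (adjusted p = 0.0329), but its 6 paired differences were close together, between 0.26 and 0.39. Its signal on set 2 arrays was higher than on the others by 0.60 on the log2 scale, which exceeds its code difference. A second xbp-1 probe set differed by 0.23 and was not called (adjusted p = 0.22). Over the whole ER chaperone and unfolded protein response list, 3 of 26 tested genes rose and none fell, where 0.616% of 9418 genes were called in either direction (0.361% higher and 0.255% lower). The median difference of the list was 0.17, against 0.00 for all genes, and 22 members were above 0. A further member, dnj-7, an ER co-chaperone with a DnaJ domain, lay just outside the threshold at 0.55 ± 0.12 (adjusted p = 0.0508).

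The cytosolic chaperones outside the inducible families moved in both directions. The HSP70 partner hsp-110 had 2906.9, 1622.9 and 2640.9 with code 2, against 1809.7, 1235.9 and 2126.6 with code 1. In the marker strain it had 2591.8, 1042.8 and 2993.6 with code 4, against 1203.4, 618.4 and 1238.8 with code 3. Set 2 was low at every code, and its code 2 and code 4 arrays lay within the range of codes 1 and 3. Its difference was 0.75 ± 0.13 (limma adjusted p = 0.014), 0.46 in the HLH strain and 1.05 in the marker strain, and a brighter second probe set gave 0.61 (adjusted p = 0.0166). The chaperone gene hsp-90 rose by 0.46 ± 0.09 in 1 probe set (adjusted p = 0.0292), while its brighter probe set gave 0.32 and was not called (adjusted p = 0.0661). The HSP90 cofactor gene ahsa-1 differed by 0.44 ± 0.10 and missed the threshold (adjusted p = 0.0548).

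The co-chaperone gene dnj-13, a DnaJ protein that hands substrates to HSP70, went the other way. It had 1422.4, 1429.7 and 1489.1 with code 2, against 2746.9, 2832.2 and 2278.6 with code 1. Its signals were 1368.1, 1022.8 and 1261.5 with code 4, against 2125.9, 1880.2 and 2044.4 with code 3. No array of codes 2 and 4 reached the lowest array of codes 1 and 3. The fall was 0.79 on the log2 scale, or 1.73-fold (fitted difference -0.79 ± 0.09, limma adjusted p = 0.000431), and a second dnj-13 probe set fell by 0.76 (adjusted p = 0.0155). Of 18 tested cytosolic chaperone genes, each taken by its brightest probe set, 1 rose and 1 fell, and 15 were above 0 with a median of 0.27. Of 25 tested DnaJ genes only dnj-13, which is on both lists, was called. Among all genes, 0.361% rose and 0.255% fell.

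Of the lipid genes, fat-6 and fat-5 had the smallest p-values. Both encode delta-9 desaturases, which make monounsaturated from saturated fatty acids. The stearoyl-CoA desaturase gene fat-6 was among the brightest called genes, with 10997.4, 8156.1 and 9528.3 with code 2 and 7317.9, 5447 and 5997 with code 1. It had 12234.6, 9897.2 and 12328.6 with code 4 and 7527.6, 7216.3 and 7407.4 with code 3. The palmitoyl-CoA desaturase gene fat-5 had 1362.9, 1463.1 and 1515.1 with code 2 and 628.1, 741.5 and 626.8 with code 1. Both genes were higher on every array of codes 2 and 4 than on any array of codes 1 and 3. In the marker strain fat-5 had 1310, 1582.3 and 855.1 with code 4 and 343.7, 781.9 and 342.7 with code 3. The rise was 0.62 ± 0.06 for fat-6 (1.54-fold, limma adjusted p = 0.000101) and 1.27 ± 0.15 for fat-5 (2.42-fold, adjusted p = 0.000663), though with no filter on dim probe sets fat-5 missed the threshold (0.0582). The third gene of the family, fat-7, had 2177.2, 1733.6 and 1101.1 with code 2 and 1355.4, 1227.7 and 1145.1 with code 1, with a fitted difference of 0.39 ± 0.15 that was not called (adjusted p = 0.318). Of 14 tested desaturase and elongase genes these 2 rose and none fell, where 0.361% of all genes rose and 0.255% fell.

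Lists of other lipid pathways held few calls. On the membrane lipid list, ckb-2, also counted on the ER list, was the only 1 of 20 genes called by its brightest probe set. Of all genes, 0.616% were called. The acyltransferase family gene acl-12 rose by 0.67 ± 0.13 in 1 probe set (limma adjusted p = 0.0329) but not in its brighter one (0.44, adjusted p = 0.167). The lipid droplet protein gene plin-1, a perilipin, had 898.2, 965.4 and 919.2 with code 2 and 708.8, 769.4 and 733.8 with code 1, and it had 1014.9, 1030.6 and 886.9 with code 4 and 534.5, 695.8 and 548.8 with code 3. These codes did not overlap, and the difference was 0.53 ± 0.10 (adjusted p = 0.021), although 2 further plin-1 probe sets gave 0.32 and 0.30 and were not called. By brightest probe set none of 37 lipid storage and lipolysis genes was called with limma (9 at an unadjusted p under 0.05), and the median was -0.01. Among all tested probe sets, 11.63% had an unadjusted p under 0.05. The gene icl-1, which encodes the glyoxylate cycle enzymes that turn fat into sugar precursors, rose in 3 probe sets, by 0.52, 0.36 and 0.31 (adjusted p = 0.0144, 0.0313 and 0.0414). Quantile normalization in place of the authors' scaling ended these 3 calls, with adjusted p = 0.0794, 0.169 and 0.192. None of 31 tested beta oxidation genes, which break fatty acids down, was called with limma (7 at an unadjusted p under 0.05), and their median of -0.13 was -0.04 without the code 3 array of set 3.

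**Figure D2:**
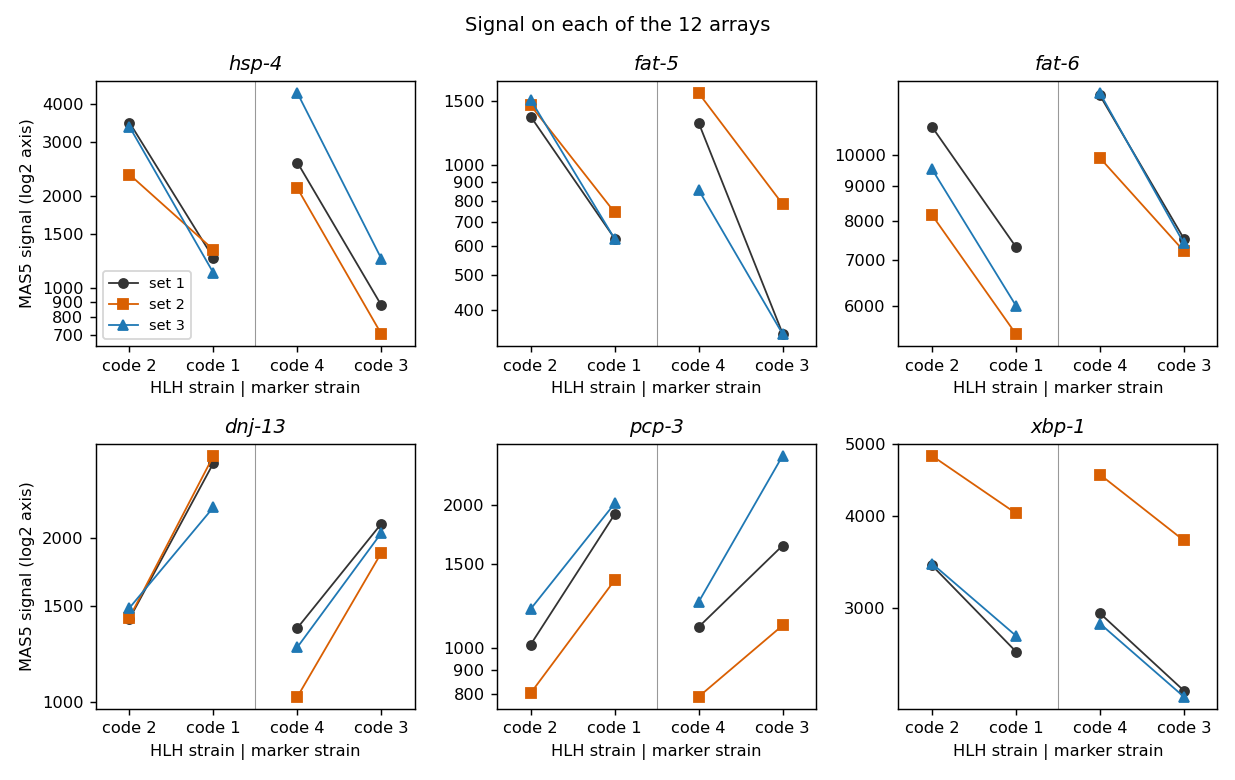
MAS5 signal (log2-spaced axis, one scale per gene) on each of the 12 arrays for 6 called genes; lines join arrays of the same strain and set, with codes 2 and 1 of the HLH strain on the left and codes 4 and 3 of the marker strain on the right. Every line slopes the same way within a gene: down to the right for hsp-4, fat-5, fat-6 and xbp-1, and up for dnj-13 and pcp-3. The lines of xbp-1 also show the higher level of set 2.

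The 15 largest rises in single genes also held members of enzyme families. The putative amine N-methyltransferase gene anmt-3 had 562.1, 550.2 and 853.5 with code 2, against 279.7, 461.8 and 359.5 with code 1. With code 4 it had 959.1, 887.3 and 1211.7, against 472.1, 683.9 and 538 with code 3. Codes were apart within each strain but overlapped across strains, as the marker strain was brighter. The rise was 0.85 ± 0.13 (limma adjusted p = 0.00636) and nearly the same in both strains, 0.84 in the HLH strain and 0.86 in the marker strain. The UDP-glucuronosyltransferase family gene ugt-13, of a class that attaches sugars to foreign compounds, rose by 0.71 ± 0.11 (adjusted p = 0.00669) and was the only member called of 45 tested. The cytochrome P450 family gene cyp-37B1 rose by 0.73 ± 0.15 (adjusted p = 0.0391), the only member called of 33. The gene lact-4, of a beta-lactamase-like family, rose by 0.83 ± 0.15 (adjusted p = 0.0146). The F-box gene fbxa-156 rose by 0.52 ± 0.10 (adjusted p = 0.025), a call kept without only 5 of the 12 arrays. With 1 call each, the lists of these families (97 ubiquitin ligase adaptors in the last case) are not set apart from the 0.616% of all genes called.

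The other large rises lay in genes that the sources used here do not describe. They were F15B9.6 (0.97), Y70C5C.1 (0.80), F14F8.8 (0.78), C09E7.4 and F07C3.9 (both 0.71). Apart from F15B9.6 and Y70C5C.1, whose calls are given as descriptions, limma adjusted p lay between 0.00546 and 0.0131. The gene C09E7.4 had signals of 466.8, 378.4 and 421.1 with code 2 and 299.5, 204.8 and 249.3 with code 1. With 447.8, 300.1 and 355.6 with code 4 and 226.9, 180.2 and 293.6 with code 3, it was among the genes whose codes did not overlap on any array. The dim gene lido-8 had signals of 201.4, 230.7 and 245 with code 2, 143.9, 106 and 106.6 with code 1, 157.4, 100.2 and 113.1 with code 4, and 60.8, 20.7 and 40.6 with code 3. Only its 3 code 2 arrays were above the array median, and its fitted difference of 1.32 leans on code 3 signals near the floor. With no filter on dim probe sets it was not called (adjusted p = 0.136). Its second probe set differed by 0.56 and was not called (adjusted p = 0.205). Called rises outside the naming rule, picked here after their values were seen, include the transcriptional coactivator gene mbf-1 (0.54), the pyrophosphatase gene pyp-1 (0.44), the bZIP factor gene zip-12 (0.61), the gap junction gene inx-16 (0.64) and the kinase gene prk-1 (0.42). Of these calls, that of mbf-1 held without each single array, while those of zip-12 and pyp-1 held without 4 of 12 arrays, that of prk-1 without 1 and that of inx-16 without 0.

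The falls were narrow in range, none exceeding 0.83 on the log2 scale. The prolyl carboxypeptidase-like gene pcp-3 had 1016.8, 804 and 1208 with code 2, against 1909.8, 1388.7 and 2012.1 with code 1. It had 1106.8, 789.7 and 1249.3 with code 4, against 1641.3, 1115.3 and 2534.1 with code 3. Only the code 3 array of set 2 lay within the range of codes 2 and 4. The difference was -0.75 ± 0.09 (limma adjusted p = 0.00106), with -0.81 in the HLH strain and -0.70 in the marker strain. On the intestine list 3 of 31 tested genes fell and none rose, where 0.255% of all genes fell. They were the aspartyl protease gene asp-13 (-0.57 ± 0.10, adjusted p = 0.0126), the cathepsin B-like protease gene cpr-8 (-0.55 ± 0.11, adjusted p = 0.0392) and pept-1, the gut transporter of peptides (-0.54 ± 0.10, adjusted p = 0.0292). The median of that list was -0.04, and 20 of its genes were below 0. The count of 3 fell to 1 without the array titled 2_2 (2) and to 0 with no filter on dim probe sets or without the set term. Of the 3 calls, that of asp-13 held without each single array, that of pept-1 without 3 of 12 and that of cpr-8 without 1. The secreted aspartic protease homologue hrg-7, outside the naming rule and picked after its value was seen, fell by 0.57 (adjusted p = 0.0133) with no overlap of the codes.

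The remaining falls came from varied families. They include K01D12.9 (-0.83), the ABC transporter gene pgp-5 (-0.81), T16G12.1 (-0.80), ZK228.4 (-0.78) and the C-type lectin gene clec-258 (-0.75). Apart from pgp-5, whose call is given as a description, limma adjusted p lay between 0.00289 and 0.0155. For T16G12.1 the signals were 765.9, 955.7 and 973.7 with code 2, against 2146.5, 1430 and 1729.1 with code 1. They were 778, 694.2 and 872.1 with code 4, against 1212, 993.5 and 1466.1 with code 3, with no overlap. A second T16G12.1 probe set gave the same difference of -0.80 (adjusted p = 0.013). Smaller falls were those of Y48E1B.8 (-0.69), the prolyl isomerase family gene fkb-5 (-0.64), the acyltransferase family gene oac-29 (-0.64), K08D12.3 (-0.63), nspg-12 (-0.61) and the infection response gene irg-3 (-0.60). Their limma adjusted p lay between 0.00636 and 0.0292. The calls of Y48E1B.8 and K08D12.3 held without each single array. That of fkb-5 held without 10 of 12 arrays, that of nspg-12 without 7, that of irg-3 without 5 and those of oac-29 and R193.2 without 4. For R193.2 (-0.57) the second probe set gave -0.10 and was not called (adjusted p = 0.834). On the germline list 1 of 20 genes fell, daz-1, which encodes an RNA-binding protein needed for oogenesis (-0.48 ± 0.10, adjusted p = 0.0332). Of all genes, 0.255% fell. The SR splicing factor gene rsp-1 fell in 1 probe set (-0.45, adjusted p = 0.0164), while 2 others gave -0.40 and -0.31 and were not called.

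**Figure D3:**
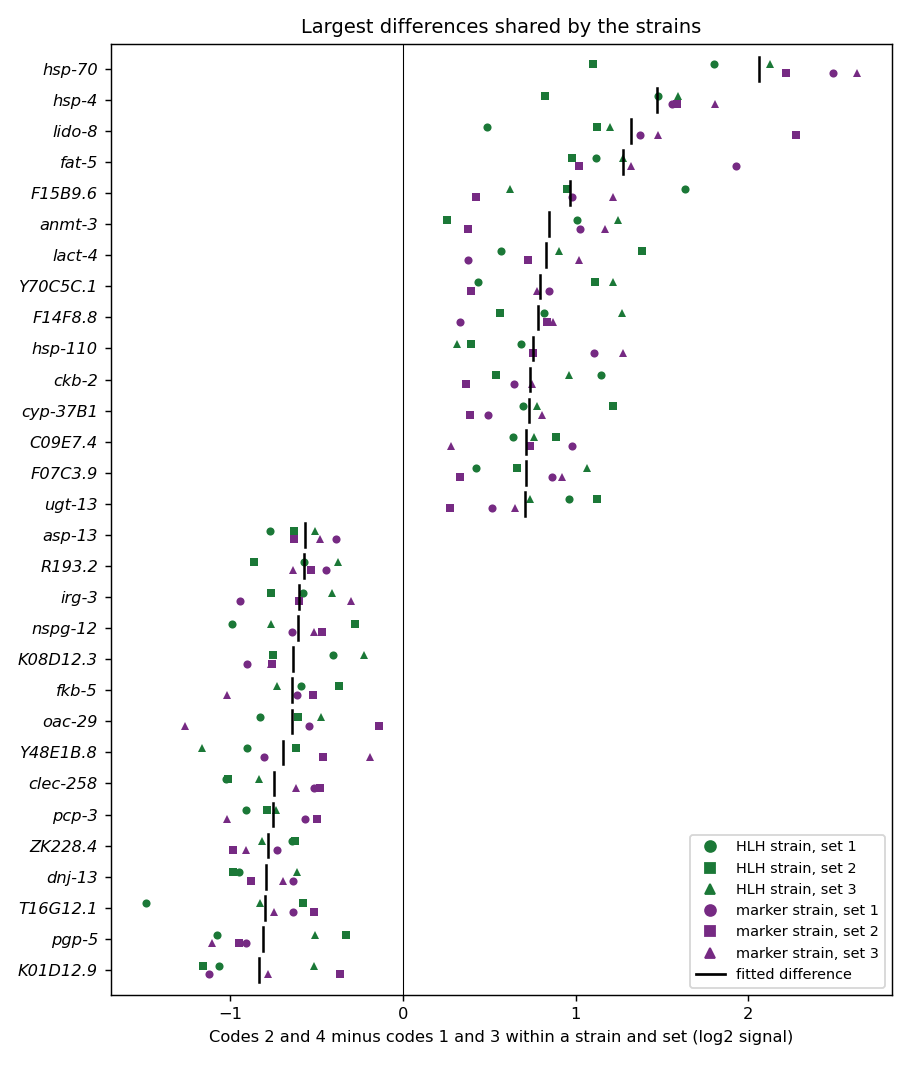
Difference in log2 signal within each of the 6 pairs of arrays of one strain and set (code 2 minus code 1 in green, code 4 minus code 3 in purple, marker shape by set) for the 15 largest rises and 15 largest falls in single genes, hsp-70 included; black bars are fitted differences. No point can cross 0, as the genes were picked for the same sign in all 6 pairs. The spread among pairs is widest for lido-8, from 0.49 to 2.28.

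Whole pathways with no called gene were set beside these, each described by its members' brightest probe sets. Ribosomal protein genes lay together just above 0: of 70 tested, 67 were above 0 with a median of 0.12. That median was 0.01 after quantile normalization, so the position of this list depends on the scaling. The translation factor list was mixed, with 11 of 29 genes above 0 and a median of -0.05. Of 25 ribosome biogenesis genes, 23 were below 0 with a median of -0.16 (-0.01 in set 2), and of 27 tRNA synthetase genes 23 were below 0 with a median of -0.13. The cytosolic and ER lists above had medians above 0. Of 16 mitochondrial chaperone and protease genes, 14 were below 0 with a median of -0.14, though it was 0.004 in set 2. None of these 5 lists had a gene called with limma, and at an unadjusted p under 0.05 they held 32, 7, 6, 8 and 2 genes in the order given. The share over all tested probe sets was 11.63%. Muscle (36 genes), pharynx (27), neuron (34), sperm (19), cuticle collagen (95) and proteasome (32) lists also had no call, with medians between -0.05 and 0.01 and 8, 1, 5, 1, 10 and 0 genes at an unadjusted p under 0.05.

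**Figure D4:**
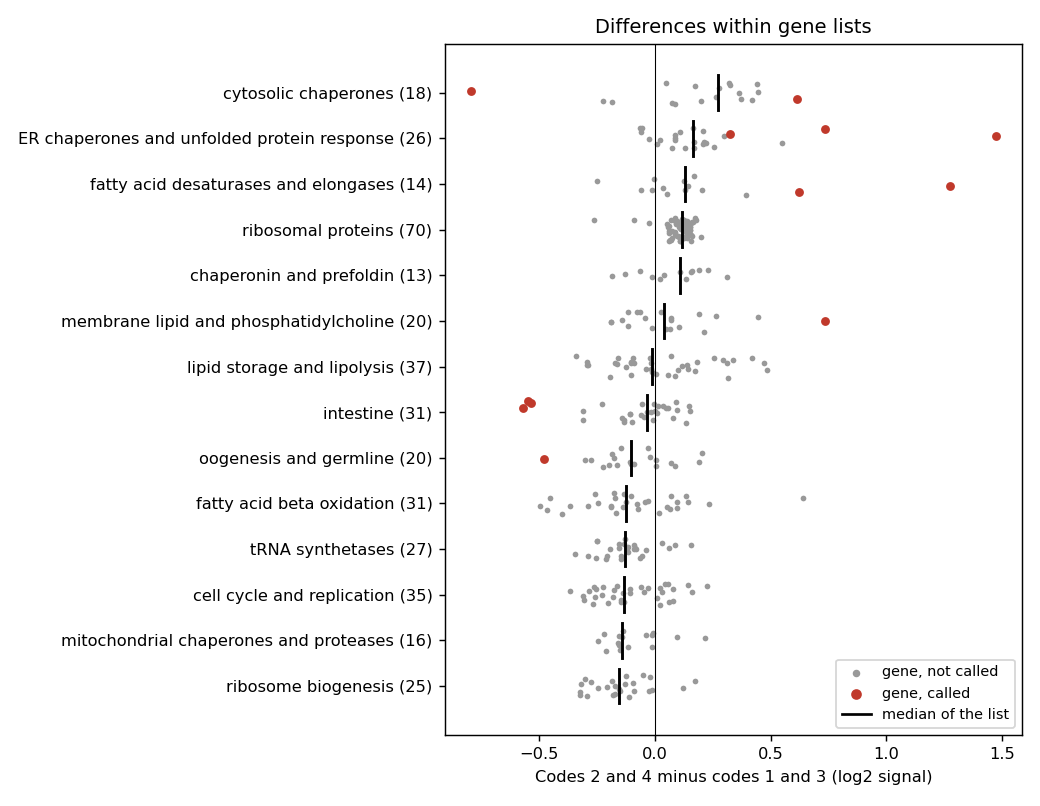
Difference in log2 signal (codes 2 and 4 minus codes 1 and 3) of each gene on 14 lists, by its brightest probe set; black bars are list medians, red points are called genes, and the number tested is in brackets. The points farthest out are hsp-4 at 1.47 and fat-5 at 1.27 on the right and dnj-13 at -0.79 on the left, whereas the ribosomal proteins form a tight group with a median of 0.12.

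Many of the genes that differed between codes also differed in level between strains or sets. Of the 73 called probe sets outside the heat shock lists, 36 (49.32%) were also called for HLH minus marker strain in the same fit, against 15.1% of all tested probe sets. For a difference among sets the share was 53.42%, against 39.6%. The same residual spread divides all 3 tests, so probe sets with a small spread are favoured in each of them. Their median signal was also higher, 907 against 511.1 for all tested probe sets (medians of geometric means over 12 arrays). The level of pgp-5 was 1.42 lower in the HLH strain and 1.37 higher in set 2 on the log2 scale, both larger than its code difference. For irg-3 the signal of set 2 was lower by 1.31, and for ZK228.4 it was higher by 1.38. The chaperone gene hsp-110 was lower in set 2 by 0.96 and hsp-90 by 0.58. No strain term was called for hsp-4 (0.25, limma adjusted p = 0.265) or fat-5 (0.41, adjusted p = 0.0888).

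The set term mattered for most of these calls. Without it 14 probe sets were called, and 6 of them lay outside the heat shock lists: hsp-4 (adjusted p = 0.00344), dnj-13 (0.00369), fat-5 (0.0226), fat-6 (0.0278), T16G12.1 (0.0471) and a probe set that lists several genes (0.0195). Leaving out each array in turn kept 33 of the 81 calls every time. Among these were hsp-4, fat-5, fat-6, dnj-13, pcp-3, T16G12.1, anmt-3, ugt-13, mbf-1 and asp-13, with highest adjusted p of 0.000656, 0.00422, 0.000717, 0.0029, 0.00724, 0.0189, 0.0325, 0.0305, 0.0414 and 0.0495 in that order. The other 48 calls were lost without at least 1 array, most often without the code 1 array of set 1 (46 lost), the code 3 array of set 1 (39) or the code 4 array of set 1 (37). The call of hsp-110 was lost without any of these 3 (adjusted p up to 0.0573), and that of its brighter probe set also without the code 1 array of set 3 (up to 0.0708), and that of ckb-2 without 3 arrays, up to 0.0673. The call of xbp-1 held without only 1 of 12 arrays (adjusted p up to 0.102), and those of hsp-90, pept-1, daz-1 and cyp-37B1 without only 3 (up to 0.0985, 0.0948, 0.104 and 0.112). No called probe set changed sign in any of the settings tried. All 81 had the same sign in all 6 pairs, and the settings reuse these arrays, so this adds no separate evidence. Just outside the threshold lay dnj-7 and let-413 (0.44), both at adjusted p = 0.0508, and just inside it lay ZK662.2 (0.50, adjusted p = 0.0463) and T19D12.4 (-0.42, adjusted p = 0.0489).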

How the data were processed

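Per the labels' protocols, total RNA of lysates was turned into biotinylated cRNA, of which each of the 12 arrays took 1 sample. The deposited intensity values are MAS5 signals on a linear scale. MAS5 is named per the submitters' processing notes, with no version stated there. The scaling by the authors was kept.

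Signals below the 10th percentile (16.7) were set to that value before taking log2. Besides 77 control probe sets, those not above the array median on at least 3 of 12 arrays were dropped. limma 3.58.1 in R 4.3.3 (lmFit, eBayes with trend) fitted code pair, strain and set with 7 residual degrees of freedom, and a second fit with 4 groups and set gave the values per strain and the interaction. All tests are two-sided.

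Deviations from group means correlated between arrays of one set in all 15 pairs (r from 0.27 to 0.79, without the array titled 2_2 (2)), so set numbers were taken to pair the arrays. Arrays of different sets reached r = 0.40, for the code 2 array of set 1 with the code 4 array of set 3. These correlations therefore do not set sets 1 and 3 fully apart. The array titled 2_2 (2) correlated at 0.23 to 0.54 with set 3, at 0.05 to 0.24 with set 1 and at -0.51 to -0.31 with set 2. Its ranges with sets 1 and 3 overlap, so they do not settle its place in set 3. Its log2 signals correlated at 0.946 with those of the array titled 2_2, within the 0.891 to 0.977 found over all pairs of arrays, so both were kept as separate samples. On simulated data 41 of 67 probe sets changed by 0.5 on the log2 scale were called, 62 of 67 changed by 1, and 65 of 66 changed by 2, with 13 false calls. The simulation drew independent noise for each probe set and array and took the strain and set terms as true. These rates therefore need not hold for the real arrays.

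The platform's annotation lists 1 gene for 20766 probe sets, several for 887 and none for 972, and a probe set of several names no gene here. Of those with 1 gene, 20701 symbols were updated through gene ID with the WBcel235 gene table, and 65 are as the platform gives them. Identifiers ending in s_at or x_at mark probe sets that may also bind related transcripts. Genes named were drawn from 3 sources, and not every gene of these is printed. These were the 15 largest rises and falls of called single-gene probe sets with 1 sign in all 6 pairs, members of the heat shock and construct lists, and up to 4 members with the smallest p of each other list. The comparison, these lists and this rule were chosen with earlier results of these data known. Alternatives changed the filter, floor, scaling, variance model, model terms, arrays, sets and strains.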

Additional observations from a re-analysis of the deposited data

Results flagged for a closer look

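In 44 named probe sets the 6 paired differences were examined for a single pair far from the others, and 3 were found. Chance alone marks about 1 in 20 such groups. For hsp-4 the HLH strain's pair of set 2 differed by 0.82, whereas the other 5 pairs lay between 1.48 and 1.81. For fat-5 the marker strain's pair of set 1 differed by 1.93, against 0.98 to 1.32 in the others. For T16G12.1 the HLH strain's pair of set 1 differed by -1.49, against -0.83 to -0.52 in the others. All 3 genes kept their calls without each single array.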

How the results depend on the processing

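The 81 calls numbered 67 without the array titled 2_2 (2), of which 59 were shared, and between 56 and 94 with quantile normalization (82), no floor (81), a floor of 50 (82), a filter on mean signal (89), no intensity trend (59), robust eBayes (94), strain differences averaged (70), or both arrays titled 2_2 averaged (56, an alternative chosen after seeing the data). Larger changes came with no replicate block for the set (14, all shared), that array in set 2 (37), no filter on dim probe sets (26), sets 1, 2 and 3 left out in turn (17, 34 and 36), the HLH strain alone (40) and the marker strain alone (33). The last 5 rest on fewer arrays, and for the others the cause was not tested. Leaving out single arrays gave 35 to 101 calls. The fewest came without the HLH code 1 array of set 1 (35) and the most without the marker code 3 array of set 2 (101); the marker arrays of code 3 in sets 1 and 3 gave 43 and 53, and those of code 4 in sets 1 and 2 gave 44 and 51. Outside the heat shock lists the count was 73, 59 without the array titled 2_2 (2) and 6 with no replicate block. The interaction had 0 calls in every setting but one: without the HLH code 1 array of set 2 it had 1, hlh-8 (2.46, limma adjusted p = 0.00648), so the range over single arrays was 0 to 1. For 18 lists the medians were recomputed in 28 alternatives, and they kept their sign throughout except for lipid storage (14), membrane lipid (23), DnaJ (24), intestine (26), C-type lectins (27) and immune effectors (27); the medians of the other lists were not recomputed. Signals near background are noisy in MAS5, which limits dim genes such as lido-8 and pgp-5.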
